A study of Homo sapiens with 16 samples.

Results

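eIF4E2, also called 4EHP, is a relative of the cap-binding initiation factor eIF4E. It binds the mRNA cap but does not recruit the scaffold eIF4G, so it blocks initiation. Together with GIGYF1, GIGYF2, the collision sensor ZNF598 and proteins of the tristetraprolin family, it silences chosen mRNAs, and in low oxygen it has been tied to cap-dependent translation with HIF-2α. Here its knockdown was described by translation efficiency (TE), the ratio of ribosome footprints to input mRNA of a gene, in A549, a human lung adenocarcinoma cell line.

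The experiment used 6 of the 16 libraries of the series, a footprint and an input library from each of 3 samples: 1 A549 sample with a scrambled hairpin (labelled shscramble rep2) and 2 samples with a hairpin against eIF4E2 (labelled sheIF4E2 rep1 and rep2, which the series text calls biological replicates). The series text names 1 hairpin against EIF4E2, so effects of that hairpin on other mRNAs cannot be told apart from those of eIF4E2. All samples received fresh medium for 2 h and cycloheximide, which arrests elongating cytosolic ribosomes, at 100 µg/mL for 5 min. Footprints were taken at 30 nt after RNase I, and input RNA was fragmented with zinc and taken at 40 to 60 nt. Members are the genes listed for all 3 samples with a mean of at least 10 TPM in both assays. TPM divides reads by the length of the gene and brings every library to the same sum.

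Of 11805 genes listed for any of the 3 samples, 9606 were listed for all 3 and 2961 of these (30.8%) were kept. The footprint level alone removed 2505 genes, the input level alone 110, and both 4030. On the control alone 2532 of the kept genes would have passed, and 414 passed only because the knockdown samples were higher, while 103 genes went the other way. SHISA5 (10.0 TPM of footprints) and HDDC2 (10.01) lay just inside the minimum, and LDOC1 (9.999) and CAP2 (9.996) just outside it. TE changes are log2 differences from the control, computed on log2(TPM + 1), with the median of all kept genes set to 0 in each knockdown sample (the centre); a pseudocount of 1 understates the change of low genes.

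Reads recovered from the TPM steps came to 552100 to 631500 per input and 196995 to 241083 per footprint library, lowest in the control for both assays. The median kept gene had 70 to 78 input reads, but 27, 30 and 34 footprint reads in the control and the knockdown samples, and 348 kept genes (11.8%) had fewer than 10 footprint reads in the control. All 5 epithelial markers of the line were listed, with summed input of 759.9 TPM in the control and 1147.2 and 1039.6 in the knockdown samples. Of 6 fibroblast markers 2 were listed, with sums of 6.5, 27.1 and 32.0 TPM, and no leukocyte (0 of 5) or endothelial (0 of 4) marker was; the part of these levels in the results was not tested. The samples are bulk cultures, so a change in the share of cells of 1 state and a change in RNA per cell cannot be told apart.

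The hairpin target was lower in both knockdown samples. EIF4E2 (chromosome 2, 232550689 to 232583644 in GRCh38.p14) had 21.4 TPM of input in the control (49 reads), 7.69 in replicate 1 (21 reads) and 3.57 in replicate 2 (10 reads). Its footprints were 5.29, 3.27 and 1.3 TPM, from 11, 6 and 3 reads. EIF4E2 therefore falls under the footprint minimum, and no TE change is given for it. METTL16, the m6A methyltransferase that the series studies beside eIF4E2, also stayed under it, with 14.1, 14.5 and 17 TPM of input and 3.18, 4.39 and 6.37 TPM of footprints. METTL16 was thus not lower in the knockdown samples in either assay.

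Before centring, TE was above the control for most genes in both knockdown samples. The median change was 0.40 in replicate 1, with 77.2% of genes above 0, and 0.33 in replicate 2, with 72.1% above 0. Footprint TPM had moved up by a median of 0.31 and 0.16, and input TPM had moved by -0.08 and -0.16. This balance depends on the scaling. Median-of-ratios scaling of each library gave TE medians of 0.02 and 0.02, and quantile normalization 0.00 and 0.01. Both align the libraries within each assay, so medians near 0 follow by construction and are no test of the shift. Voom (limma's method for counts) scaled each library to its recovered reads of listed genes and gave 0.05 and 0.06. The listed genes held 17.5% of the footprint TPM total in the control against 22.3% and 20.2% in the knockdown samples, and 48.8% against 46.7% and 44.6% of the input total. Changes from here on are therefore relative to the centre unless stated otherwise.

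No gene's centred TE passed the test. In limma's fit over all 2961 genes, 0 were higher (0%) and 0 lower (0%) at an adjusted p (Benjamini-Hochberg) under 0.05, and the lowest adjusted p was 0.465. At an unadjusted p under 0.05, limma gave 101 higher genes (3.41%) and 90 lower genes (3.04%). Voom on the recovered reads likewise gave 0 and 0, with 86 and 98 unadjusted and a lowest adjusted p of 0.167. The fit has 2 residual degrees of freedom, all from the knockdown pair, and assumes that the lone control varies like them.

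By size, 69 genes (2.33%) were at least 1 log2 unit above the centre in both knockdown samples and 52 (1.76%) at least 1 unit below it. Both samples are set against the same control, so these counts include every error of that control. The minimum bears on them too: 414 kept genes passed it only because the knockdown samples were higher, and 103 went the other way. Passing through knockdown footprints favours a higher TE, and passing through knockdown input a lower TE. How many of the 69 and 52 genes this concerns is not given here, so the 2 counts are not compared. Reads of 49 genes (1.65%) gave a counting interval (exact, 95%, counting error only) above the centre in both samples, and reads of 54 genes (1.82%) gave 1 below it. Above the centre in both samples, with no size limit, were 1042 genes (35.2%), and below it 1041 (35.2%). The SD of the difference between the knockdown samples was 0.634 over all genes, against 0.518 that counting error alone gives. The spread was 0.785 in the third of genes with the lowest footprint level and 0.426 in the third with the highest. In genes with few footprints, 1 unit is thus little more than this SD.

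**Figure D1:**
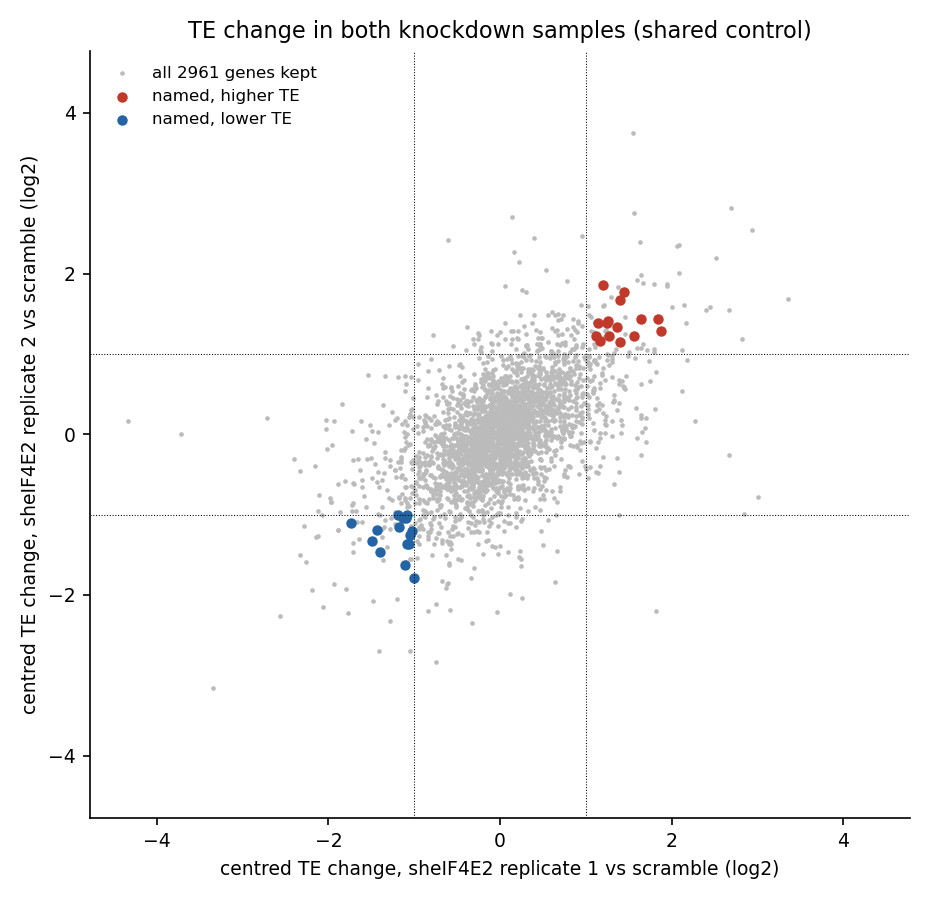
Centred TE change (log2) of all 2961 kept genes in sheIF4E2 replicate 1 (x axis) and replicate 2 (y axis) against the shared scramble control; dotted lines mark 1 log2 unit. Coloured points are the 30 named genes, 15 in each direction, at or beyond 1 unit in both samples except UBE2S and CEBPB, which lie just inside it in 1 sample; most grey points in the same corners are genes under the minimum of 20 mean reads for naming.

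Genes that met the size rule differed from the control in footprints, in mRNA or in both. Among the 69 higher genes the median footprint change, relative to all genes, was 1.15, and the median input change was -0.38. All 69 had relatively more footprints, and 53 had relatively less input. Among the 52 lower genes the medians were -0.78 in footprints and 0.64 in input, with 47 lower in footprints and 47 higher in input. Of the higher genes 50 had fewer than 10 footprint reads in the control (median 6), against 12 of the lower genes (median 15). Genes chosen for a ratio tend to differ in opposite directions in its parts, so these counts are a description of the chosen genes.

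**Figure D2:**
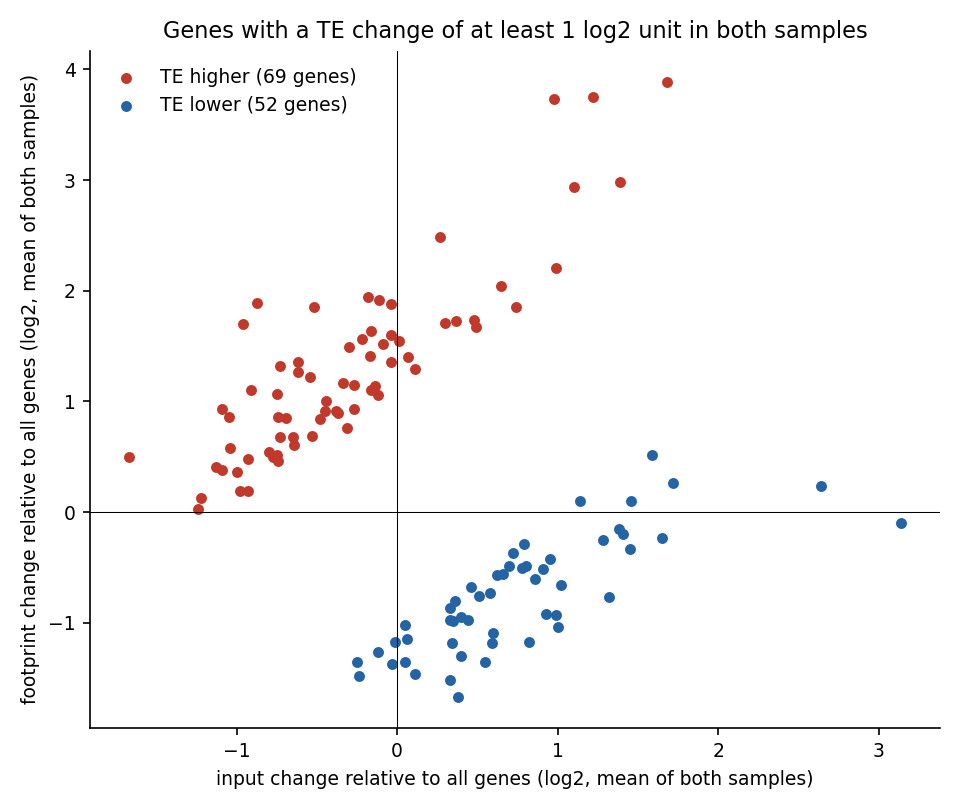
Footprint change (y axis) against input change (x axis), both log2 relative to the all-gene median and averaged over the knockdown samples, for the 69 genes with higher and the 52 with lower TE. All 69 higher genes lie above the horizontal line and 53 of them left of the vertical one, and 47 of the lower genes lie below and 47 to the right; the choice by ratio favours these corners.

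The most extreme of these genes had few reads and fall outside the rule for naming; they were chosen after their values were seen. CHCHD5, a mitochondrial intermembrane space protein, had 33, 23 and 16 input reads and 3, 18 and 16 footprint reads, for TE changes of 2.69 and 2.82. CADM4, a cell adhesion molecule, had 2, 33 and 21 input reads and 10, 12 and 10 footprint reads, for changes of -3.34 and -3.16. ANKRD1, a YAP target in many cells, had 2, 19 and 16 input reads and 11, 14 and 17 footprint reads, for changes of -2.56 and -2.26. For CADM4 and ANKRD1 it was the input that differed, from 2 reads in the control, while footprint reads were near the control's. CADM4 and ANKRD1 passed the minimum only through the input of the knockdown samples, which favours a lower TE. CHCHD5 passed it only through the footprints of these samples, which favours a higher TE.

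Genes were named from the top of each direction where the mean was at least 20 reads in each assay, ranked by the smaller of the changes in the knockdown samples. None of the 30 passed limma (adjusted p from 0.465 to 0.728), and their sizes are a description, since size chose them. A first set of higher genes had more footprints at a nearly level mRNA. In IVNS1ABP, GLYR1, PAFAH1B2 and TRIP10 of this set, and in UHRF1, control footprints were under 10 TPM (4.01 to 8.59), so these genes passed the minimum only through the knockdown samples, which favours a higher TE. IVNS1ABP, a kelch-repeat protein, had 24.7, 24.7 and 22.9 TPM of input in the control and the knockdown samples, and 5.21, 18.6 and 18.1 TPM of footprints. Its TE went from 0.211 to 0.752 and 0.788, a change of 1.25 and 1.39 (SE 0.47). ARF4, a small GTPase of the Golgi, had 99.4, 95.3 and 74.0 TPM of input and 32.8, 92.1 and 73.5 TPM of footprints. ARF4 was 1.12 and 1.22 above the centre (SE 0.34, adjusted p = 0.644 by limma).

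GLYR1, a nuclear chromatin protein (1.56 and 1.22), PAFAH1B2, a catalytic subunit of platelet-activating factor acetylhydrolase (1.20 and 1.86), TRIP10, a CDC42 effector at curved membranes (1.44 and 1.77), and ATRAID, a lysosomal glycoprotein (1.84 and 1.43), also rested on footprints. Their relative footprint changes were 1.36, 1.55, 1.52 and 1.60, and their relative input changes lay between -0.09 and 0.01. All 4 had fewer than 10 footprint reads in the control: 8, 9, 7 and 7. The knockdown samples held 26 to 44.

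A second set of higher genes had less mRNA, with footprints higher by a smaller amount. EIF3A, the largest subunit of the initiation factor eIF3, which brings the small ribosomal subunit to the mRNA, had 33.1 TPM of input in the control and 15.2 and 14.5 in the knockdown samples. Its footprints were 24.4, 34.7 and 31.7 TPM from 55, 69 and 79 reads. TE was 0.739 in the control and 2.28 and 2.18 in the knockdown samples, so both samples lay above the control by the same 1.16 after centring (SE 0.43, adjusted p = 0.694 by limma), with counting intervals of 0.44 to 2.00 and 0.46 to 2.00. ADK, adenosine kinase, had 27.1, 10.8 and 9.06 TPM of input and 12.9, 16.1 and 15.3 TPM of footprints (1.14 and 1.38). OAT, the mitochondrial ornithine aminotransferase, had 33.8, 14.2 and 13.1 TPM of input and 17.7, 27.4 and 29.4 TPM of footprints (1.40 and 1.67). In these 3 genes the input differed by more than the footprints.

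Both assays contributed in the remaining higher genes. ERLIN1, an endoplasmic reticulum protein that acts in the turnover of inositol trisphosphate receptors, stood at 1.64 and 1.43, UHRF1, which maintains DNA methylation through replication, at 1.36 and 1.34, and ADSS2, an enzyme of AMP synthesis, at 1.88 and 1.29. ACP1, a low-molecular-weight tyrosine phosphatase, stood at 1.26 and 1.41, and FOSL1, the AP-1 protein FRA1, at 1.40 and 1.15. RPL36AL, a ribosomal protein gene that is a close copy of RPL36A, had 242, 146 and 139 TPM of input and 112, 216 and 189 TPM of footprints (1.27 and 1.22, SE 0.24, adjusted p = 0.465). Reads of RPL36AL could be divided between the copies, so its value is uncertain.

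Lower genes showed the same split. CAD, the enzyme that starts pyrimidine synthesis, had 33.6, 27.3 and 29.4 TPM of input and 23.5, 11.8 and 10.4 TPM of footprints from 63, 28 and 31 reads. CAD lay below the centre in both samples (-1.05 and -1.25, SE 0.45). TIMM50, a receptor of the mitochondrial import channel, had 87.6, 91.1 and 75.9 TPM of input and 47.8, 30.3 and 24.9 TPM of footprints from 109, 61 and 63 reads (-1.10 and -1.04, SE 0.35). In both genes mRNA was nearly level, and each knockdown footprint value was under the control's.

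IRAK1, a kinase of Toll-like and interleukin-1 receptor signalling, had 339, 390 and 395 TPM of input and 54.0, 39.2 and 30.5 TPM of footprints, a change of -1.06 and -1.36 (SE 0.28, adjusted p = 0.505 by limma). SLC25A39, the mitochondrial glutathione importer, had 137, 137 and 124 TPM of input and 31.3, 14.2 and 13.7 TPM of footprints (-1.49 and -1.33, SE 0.33). WDR46, a nucleolar protein (-1.03 and -1.20), and UBE2S, an E2 enzyme of the anaphase-promoting complex (-1.19 and -1.0), also had fewer footprints, with relative changes of -1.35 and -0.97.

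In another group the mRNA was higher, and footprints were near the control or higher by less. UCP2, a mitochondrial carrier whose mRNA is known for an inhibitory upstream reading frame, had 48.6, 148 and 125 TPM of input and 19.4, 36.1 and 30.8 TPM of footprints (-1.13 and -1.04, SE 0.34). CPLX2, complexin 2 of regulated exocytosis, had 72.2, 158 and 214 TPM of input and 23.8, 32.0 and 28.8 TPM of footprints (-1.11 and -1.63). SYT13, an atypical synaptotagmin, had 32.6, 74.9 and 60.3 TPM of input and 10.4, 15.1 and 12 TPM of footprints (-1.09 and -1.01). In all 3, both assays were above the control in both samples, input by more.

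FAM20C, the Golgi kinase of secreted proteins, whose control input of 9.07 TPM was likewise under the minimum, stood at -1.40 and -1.46, SELENOS, a selenoprotein of endoplasmic reticulum quality control, at -1.44 and -1.19, and CNIH4, a cargo receptor of early secretion, at -1.18 and -1.16. RPS6KA4, the kinase MSK2, stood at -1.74 and -1.10, SCRIB, a cell polarity scaffold, at -1.08 and -1.36, and CEBPB, a transcription factor with upstream and alternative start sites, at -1.0 and -1.79. In each of these 6, relative input was higher, by 0.33 to 0.91, and relative footprints were lower, by changes of -0.51 to -0.97.

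The series holds a second scramble sample, deposited in another table and not used to name genes. The tables were listed separately, so it was set beside the knockdown without a test. Against it 11 of the 15 named higher genes were again above the centre in both knockdown samples, 3 were below it in both (TRIP10, ATRAID and UHRF1), and 2 were again at least 1 unit higher in both. Of the named lower genes 8 of 15 were again below, 3 were above in both, and 2 (CAD and TIMM50) were again at least 1 unit lower, with changes of -1.14 and -1.33 for CAD and -1.3 and -1.24 for TIMM50. The 2 higher genes that kept their size were ADSS2 (2.09 and 1.5) and RPL36AL (1.60 and 1.55). EIF3A stood at 0.74 and 0.75.

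Over the whole size-rule sets, 46 of 68 higher genes (67.6%) were above the centre against the second scramble sample and 30 of 52 lower genes (57.7%) below it, where all genes gave 39.7% above and 40.6% below in both samples. The same knockdown samples that chose these genes enter both comparisons, so a share above that of all genes is no independent support. The median of the 69 higher genes was 1.42 against their own control and 0.57 against the second, and that of the lower genes -1.39 and -0.57. With both scramble samples as the control, 0 of the 30 named genes changed sign and 24 of 30 came under 1 log2 unit in at least 1 sample. That control still holds the scramble sample used for naming, so the kept sign is no independent support.

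**Figure D3:**
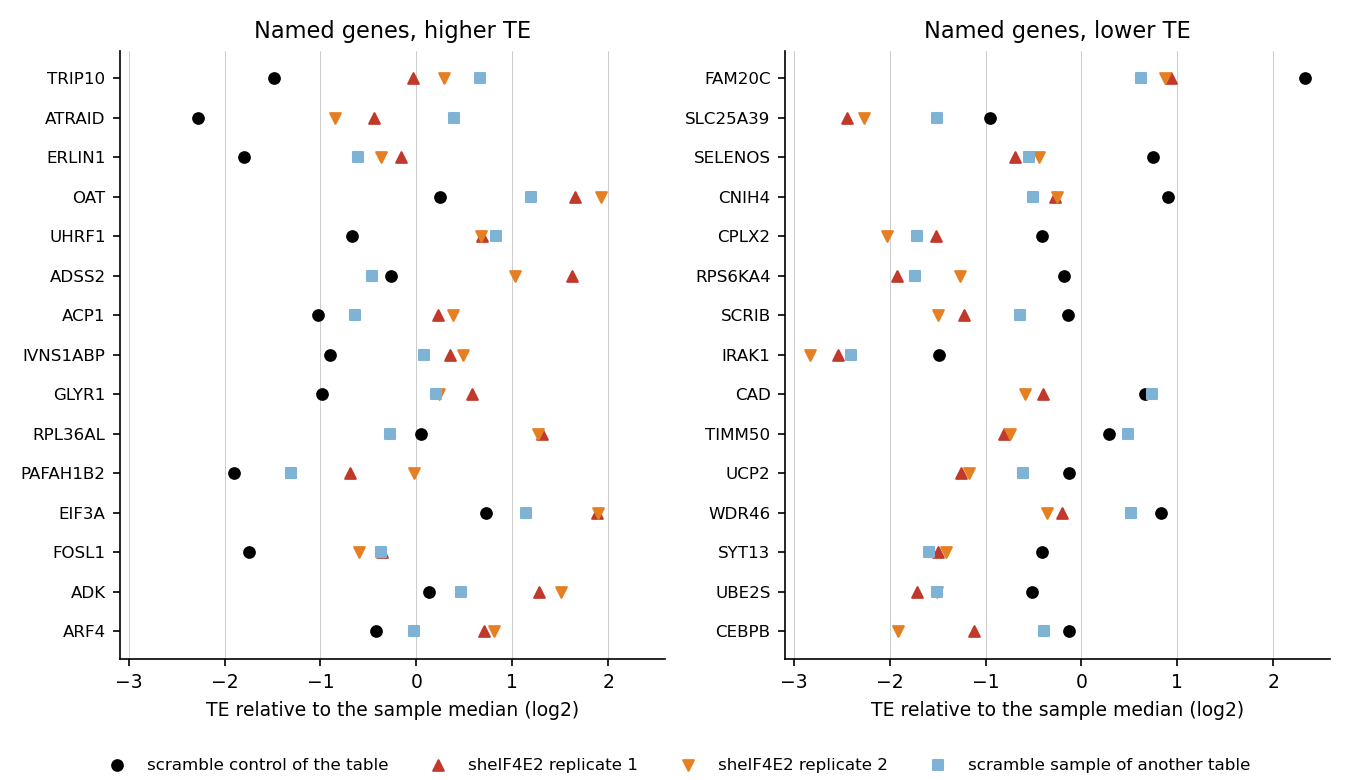
TE of the 30 named genes (log2, relative to the median gene of each sample) in the table's scramble control, both sheIF4E2 samples and the scramble sample of another table, 1 point per sample. For CAD and TIMM50 both scramble samples lie to the right of both knockdown samples; for TRIP10, ATRAID and UHRF1 the second scramble sample lies to the right of the knockdown samples.

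Partners of eIF4E2 had no common direction. Of 19 genes on this list 17 were listed and 8 kept, with 3 above the centre in both samples (37.5%) and 3 below (37.5%), close to the 35.2% of all genes. ZFP36, tristetraprolin, which recruits eIF4E2 to AU-rich mRNAs, had 31.9, 71.7 and 71.2 TPM of input and 12.8, 19.9 and 15.8 TPM of footprints (-0.95 and -1.18, SE 0.41, adjusted p = 0.725 by limma). Against the second scramble sample ZFP36 turned to 0.95 and 0.72. Its relatives ZFP36L2 (-0.37 and -1.09) and ZFP36L1 (-0.21 and -0.94) also lay below the centre. Against the second, ZFP36L2 stood at 0.36 and -0.36 and ZFP36L1 at -0.26 and -0.98. The control held 8 footprint reads of ZFP36 and 9 of ZFP36L2.

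EDF1, which is bound to collided ribosomes and brings in GIGYF2 with eIF4E2, stood at 1.12 and 0.29, and CNOT1, the scaffold of the CCR4-NOT deadenylase, at 0.45 and 0.96. DDX6, the helicase that links silencing to decapping, stood at -0.14 and 0.16, HIF1A at 0.48 and -0.15, and EPAS1, which encodes HIF-2α, at 0.03 and 0.02. None of the 8 passed limma, with a lowest adjusted p of 0.725. Of mRNAs reported as eIF4E2 targets, 4 were kept: IER3 (-0.27 and -0.72), JUN (-0.59 and -0.36), DUSP5 (0.21 and 0.05) and DUSP4 (-0.10 and 0.22).

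The general initiation machinery was mixed. Over all genes, 35.2% were above the centre in both samples and 35.2% below. Of 10 kept cap-binding and eIF4F genes 4 were above the centre in both samples and 2 below, and 0 passed limma. EIF4H, a cofactor of the helicase eIF4A, was highest: 68.1, 50 and 62.1 TPM of input, 7.06, 16 and 23.5 TPM of footprints, and changes of 1.11 and 1.40 (SE 0.50), which turned to -0.93 and -0.63 against the second scramble sample. Its control footprints were under 10 TPM, so EIF4H passed the minimum only through the knockdown samples, which favours a higher TE. LARP1, a repressor of mRNAs with a terminal oligopyrimidine tract, stood at -0.34 and -0.36 against the control and -0.36 and -0.37 against the second scramble sample. Of 20 kept genes of the other initiation factors, 8 were above and 5 below, from EIF2B2 (mean -0.75) to EIF3A (mean 1.16). mRNAs known to depend on eIF4E had 1 of 11 above (MDM2, 0.69 and 0.62) and 6 below, with RRM2 at -0.65 and -0.65. Their median of -0.05 and -0.25 turned to 0.48 and 0.03 against the second scramble sample. Control footprints of MDM2 (7.98 TPM) were under the minimum. MDM2 thus passed it only through the knockdown samples, which favours a higher TE.

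Ribosomal protein mRNAs stayed near the centre as groups. Over all genes, 35.2% were above it in both samples and 35.2% below. Of 46 large-subunit genes 16 were above and 14 below (medians 0.06 and -0.02), and of 31 small-subunit genes 16 were above and 11 below (0.14 and 0.10). RPS25 was highest of the latter, with 306, 193 and 186 TPM of input and 91.9, 159 and 129 TPM of footprints (1.05 and 0.87, SE 0.25, adjusted p = 0.522 by limma). RPS9 was lowest among the named, at -0.81 and -0.97 (SE 0.26), with 160, 110 and 121 footprint reads. Both kept their sign against the second scramble sample, RPS25 at 1.26 and 1.09 and RPS9 at -0.52 and -0.68.

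Many ribosomal protein mRNAs start with a terminal oligopyrimidine tract, a C followed by a run of C or T. It was searched only at the annotated start, on the transcribed strand, as a C and at least 4 more pyrimidines in the RefSeq promoter table of GRCh38.p14. The first 20 transcribed bases of all 8 named ribosomal protein genes are shown 5′ to 3′, with the unbroken pyrimidine run from the start in capitals, since they let the starts of genes on either side of the centre be compared.
RPS25: CTTTTTgtccgacatcttga
RPS27: CCTTTCCggcggtgacgacc
RPL39: CCCTCCTCTTCCTTTCTCCg
RPL41: CTCTCggccttagcgccatt
RPS9: CTCTTTCTCagtgaccgggt
RPL36AL: CCTgttaggcgagagctgcg
RPS27L: gcagatcgcttgcagcttgc
RPL26L1: ggcgaacgaaacgcggagct
They lie at chr11:119018324-119018343 (minus strand), chr1:153990762-153990781 (plus), chrX:119791611-119791630 (minus), chr12:56116633-56116652 (plus), chr19:54200858-54200877 (plus), chr14:49620607-49620626 (minus), chr15:63157458-63157477 (minus) and chr5:172958729-172958748 (plus).

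RPS25, RPS27 (0.52 and 0.98), RPL39 (0.47 and 1.1) and RPL41 (0.74 and 0.34) lay above the centre and RPS9 below it, each with such a start. With none at the annotated base, RPL36AL and RPS27L (0.82 and 1.03) lay above the centre and RPL26L1 (-0.84 and -1.26, from 4, 12 and 6 footprint reads) below it; RPS27L and RPL26L1 are also near-copies of other genes. Of all 27305 promoters listed there, 4.04% had such a start, as did 7.86% of the 2431 kept genes that matched and 41 of 63 ribosomal protein genes (65.1%). Kept genes with the tract had median TE changes of 0.03 and 0.00, against 0.00 and 0.01 for those without. Among ribosomal protein genes the medians were 0.07 and 0.00 with the tract and 0.09 and 0.21 without. These differences were not tested.

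The mRNAs made from mitochondrial DNA, which mitochondrial ribosomes translate, had the lowest median of the 34 lists with at least 8 kept genes. Of 12 kept (of 13), 11 were below the centre in both samples (91.7%) and 0 above, where 35.2% of all genes were below. Their medians were -0.27 and -0.37; without centring the median of their mean changes was 0.03, so this is a position relative to nuclear mRNAs, and the direction turns with that choice. MT-CO1, a core subunit of cytochrome c oxidase, was lowest, with 180, 102 and 120 TPM of footprints from 88, 44 and 65 reads (-0.95 and -0.55, SE 0.25, adjusted p = 0.661 by limma). MT-ND5 of complex I stood at -0.69 and -0.43, MT-ATP6 of ATP synthase at -0.35 and -0.65, and MT-ND4L was highest at -0.12 and 0.03.

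Relative to all genes, the median of the 12 was -0.55 in footprints and -0.23 in input. Summed over the 12, the control held 79587 TPM of input against 65872 and 64407 with the knockdown, and 10707 TPM of footprints against 9864 and 9217. The ratio of these sums was 0.135, 0.150 and 0.143. Against the second scramble sample, 10 of 12 were below the centre in both samples, with medians of -0.65 and -0.70, but that sample held 190841 TPM of mitochondrial input and 53966 TPM of footprints. The scramble samples thus differed from each other in the summed TPM of these mRNAs by more than the knockdown differed from its own control. This concerns levels and not centred TE, whose medians lay below the centre against either scramble sample. Both comparisons use the same knockdown samples.

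Histone mRNAs lay on the other side. Of 38 kept (of 41 listed), 22 were above the centre in both samples (57.9%) and 8 below (21.1%), with medians of 0.14 and 0.19. The shares over all genes were 35.2% and 35.2%. H2B and H2A genes held the highest values: H2BC17 had 162, 428 and 378 TPM of footprints at 1090, 1240 and 1140 TPM of input (0.81 and 0.82, SE 0.20, adjusted p = 0.505 by limma), and H2BC3 stood at 0.70 and 0.77. Of 8 H2A genes 7 were above in both samples, against 2 of 8 H4 genes; this division was made after the values were seen. Against the second scramble sample the histone medians turned to -0.20 and -0.22, with 10 above and 23 below. There 39.7% of all genes were above and 40.6% below. Histone genes are near-copies of each other, and reads could be divided among them.

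**Figure D4:**
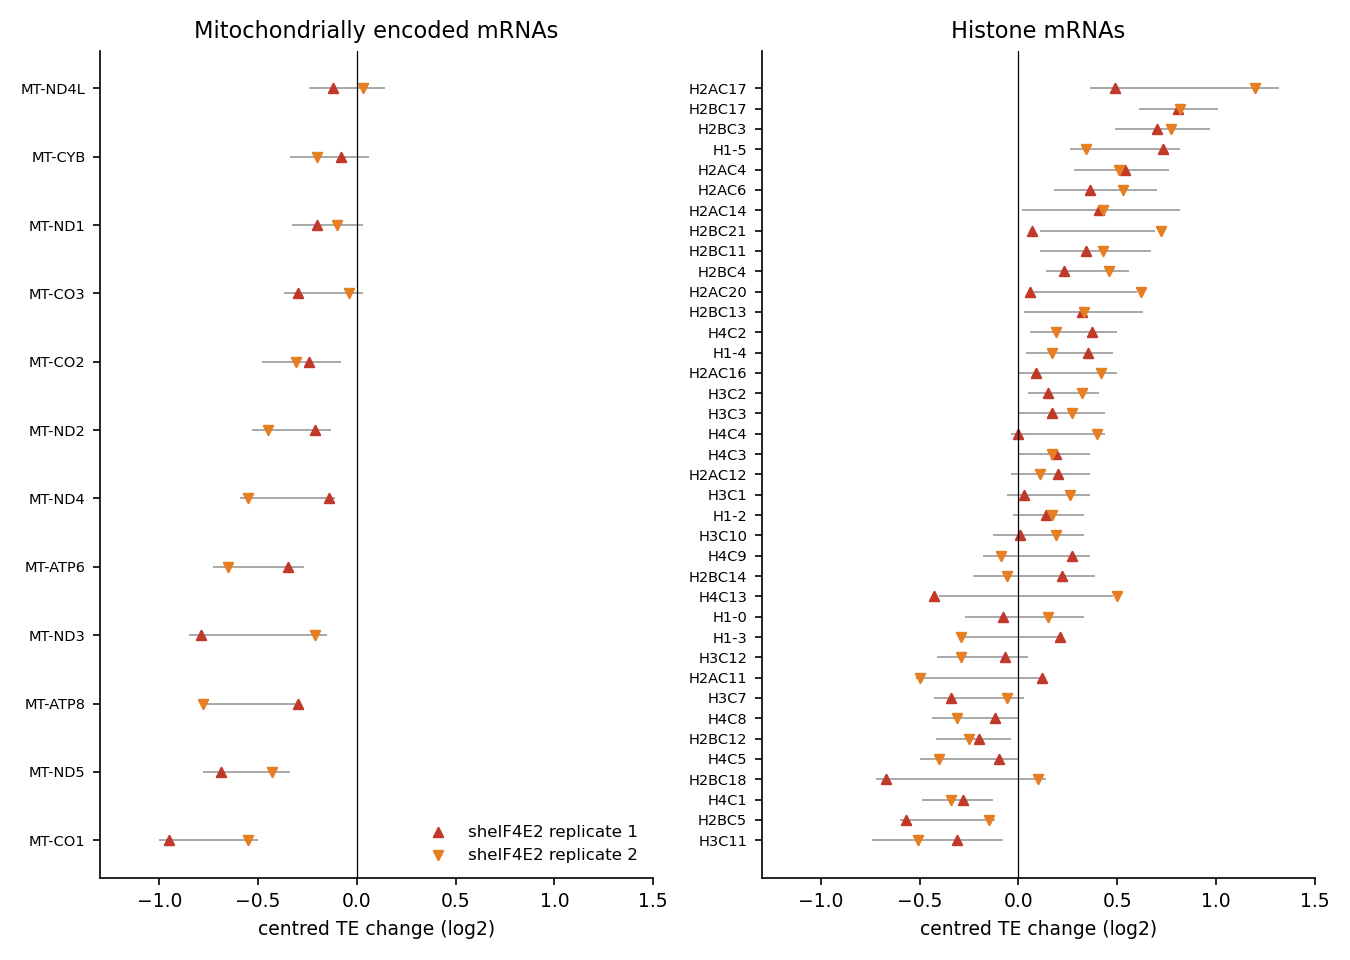
Centred TE change (log2) of the 12 kept mitochondrially encoded mRNAs (left) and the 38 kept histone mRNAs (right) in each knockdown sample; grey bars are 1 limma standard error on each side of the mean. Only MT-ND4L has a point above 0 on the left, and on the right H2A and H2B genes fill most of the top.

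Among the other lists, the chaperonin CCT, which folds actin and tubulin, had 5 of 8 subunits above the centre and 1 below (medians 0.09 and 0.25) and 7 above and 1 below against the second scramble sample (0.32 and 0.54). CCT5 was highest, with 209, 247 and 240 footprint reads (0.48 and 0.22). The m6A machinery had 6 of 10 above and 2 below (0.35 and 0.29), and 8 above and 1 below against the second scramble sample (0.59 and 0.36). The reader YTHDF3 had 24.2, 16.7 and 13.3 TPM of input and 7.17, 12.7 and 13.8 TPM of footprints (0.85 and 1.34, SE 0.52, adjusted p = 0.730 by limma), and the reader YTHDF2 and the 18S rRNA methyltransferase METTL5 stood at means of 0.86 and 0.97. Against either scramble sample both lists had medians above the centre, but at a minimum of 20 TPM only 4 m6A genes were left, with 1 above, 2 below and a median of -0.04. Of all genes 35.2% were above the centre against the control and 39.7% against the second scramble sample. Both comparisons use the same knockdown samples. Control footprints of YTHDF3, METTL5 (4.41 TPM) and the list member ALKBH5 (9.64 TPM) were under 10 TPM. These genes passed the minimum only through the knockdown samples, which favours a higher TE. No member of either list passed limma.

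Cholesterol and lipid synthesis had 9 of 16 genes below and 3 above (-0.06 and -0.26), and 11 below and 4 above against the second scramble sample (-0.32 and -0.33), led by NSDHL, a sterol dehydrogenase (-0.58 and -1.34). Of all genes 35.2% were below and 35.2% above against the control, and 40.6% below and 39.7% above against the second. At a minimum of 1 TPM, 12 of 28 cholesterol and lipid genes were below the control's centre and 10 above. Integrated stress response genes had 5 of 16 above and 6 below, with ATF4 at -0.42 and -0.59 and DDIT4 at 0.97 and 0.68; ATF4 turned to 1.86 and 1.69 against the second scramble sample. NRF2 targets, which A549 expresses highly through its KEAP1 mutation, had 14 of 29 above and 10 below. PIR, an iron-binding NRF2 target, had the largest value there (2.52 and 2.19, from 2, 12 and 10 footprint reads) and stood at 0.14 and -0.18 against the second scramble sample. FTL, ferritin light chain, with an iron-responsive element in its leader, stood at -0.54 and -0.68 (SE 0.18), and at -0.30 and -0.43 against the second. IDH2, the mitochondrial isocitrate dehydrogenase, stood at 1.79 and 1.87 from 2, 25 and 25 footprint reads, and at 0.56 and 0.65 against the second. Control footprints of PIR (2.51 TPM) and IDH2 (2.26 TPM) were under the minimum. PIR and IDH2 thus passed it only through the knockdown samples, which favours a higher TE.

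**Figure D5:**
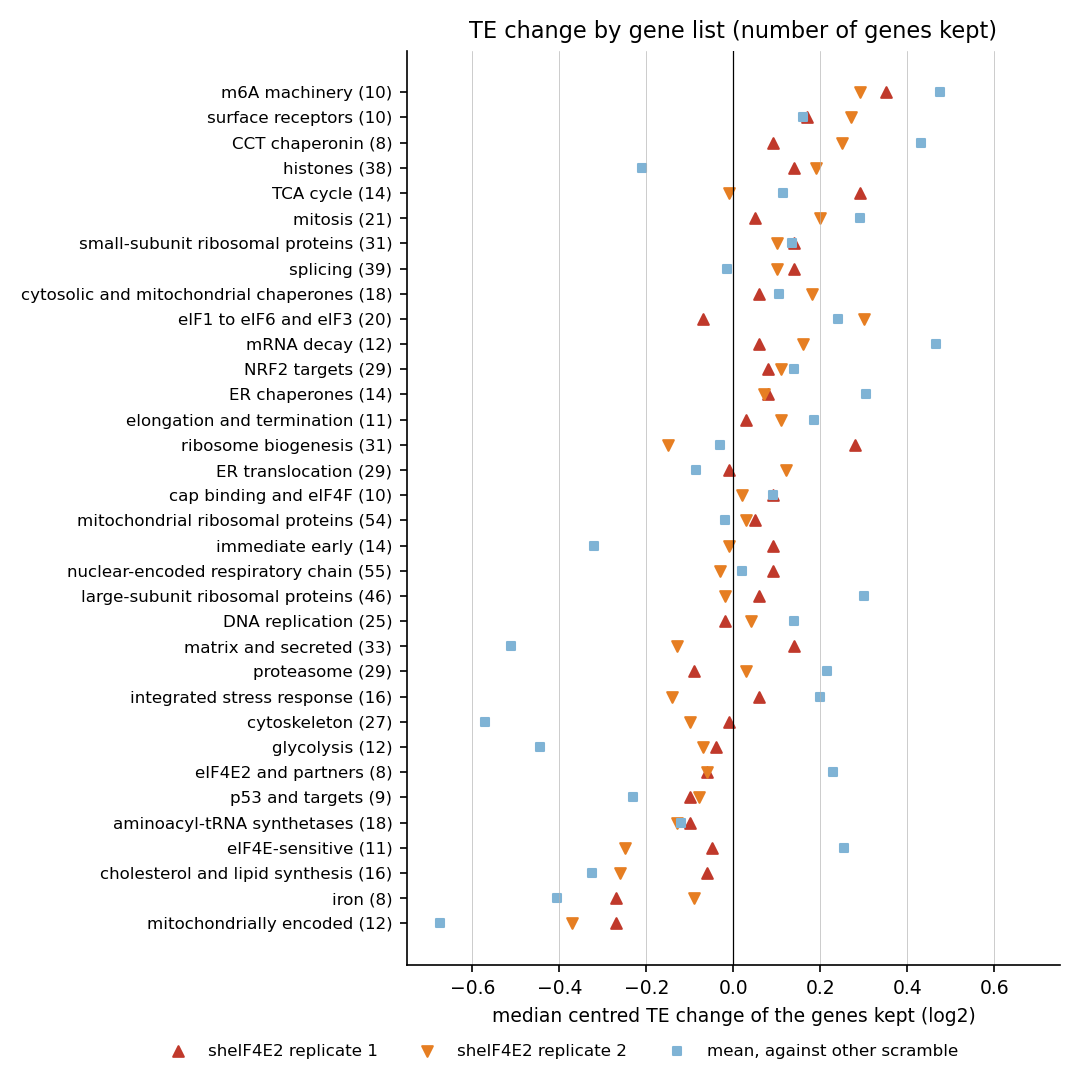
Median centred TE change (log2) of each gene list with at least 8 kept genes (number in brackets) in sheIF4E2 replicate 1 and replicate 2 against the table's control, and the mean of both medians against the other scramble sample. Mitochondrially encoded mRNAs are lowest on both measures, at -0.27 and -0.37 against the control, and histones change side between controls.

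Gene features sorted the TE changes weakly. Spearman's rho across genes, given as a description since genes are not independent replicates, was -0.04 and -0.10 with GC content of the first 50 transcribed bases (2431 genes) and -0.04 and -0.10 with input level (2961 genes). With TE in the untreated A549 sample of another table it was 0.13 and 0.27 (2959 genes). In the 592 genes with the lowest untreated TE the median change was -0.12 and -0.23, and in the 592 with the highest 0.09 and 0.23. With TE in the second scramble sample rho was -0.02 and 0.01. The untreated sample thus ordered the genes where the second scramble sample did not.

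METTL16 depletion was set beside the eIF4E2 knockdown for the same genes, since the series studies both proteins; these comparisons use other controls. Across 2954 to 2957 genes, rho of the centred TE changes was -0.13 and -0.19 with METTL16 guide clone 1, -0.14 and -0.25 with clone 2 and 0.02 and 0.05 with the METTL16 hairpin. The clones' changes share the untreated sample with the relation above. Before centring, the TE median of these genes was -0.21, -0.42 and -0.86 in the METTL16 samples, against 0.40 and 0.33 here. Such medians depend on how each library is scaled, and the controls differ, so their signs are not read as opposite shifts. Listed genes held 27.55% of the footprint TPM total in the METTL16 hairpin's scramble control and 16.08% in the hairpin sample. The 69 higher genes had centred medians of -0.00, -0.20 and 0.16 there, and the 52 lower genes 0.18, 0.25 and 0.25. EIF3A stood at -1.18 and -1.19 in the clones and -0.37 in the METTL16 hairpin sample, each opposite in sign to its value here. In the same order CAD stood at 0.26, 0.86 and -0.77, IRAK1 at 0.24, 0.77 and -0.22, and EIF4H at 0.25, 0.21 and -0.86. Each of these genes shared its sign here in some METTL16 samples and not in others.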

How the data were processed

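Footprint and input libraries of A549 cells were deposited as TPM per gene, a unit the authors computed; the submitters' processing notes name featureCounts 2.0.1, STAR 2.7.5c, cutadapt 2.8, Bowtie2 2.2.5 and Bowtie 1.3.0 and the build GRCh38. The sources used here do not give gene lengths, multi-mapping rules or strand, so overlapping and antisense genes cannot be told apart. Each sample has its own gene column, and the tables were listed separately, so tests stayed within the sheIF4E2 table.

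Genes with a mean of at least 10 TPM in both assays entered limma 3.58.1 (R 4.3.3) on log2(TPM + 1): a model of the 4 group means over 6 libraries, eBayes with a trend, and the footprint change minus the input change as contrast, after each knockdown sample's TE change was centred on its all-gene median. The two-sided p-values were adjusted by Benjamini and Hochberg over the 2961 genes. The fit was run on simulated data with planted TE changes larger than 1 log2 unit. That run checked only the median estimates and does not show how often changes near 1 log2 unit are found. Whole reads were recovered from the TPM steps for 11892 of 11892 genes at a relative tolerance of 1e-10, up to a factor per gene, and served for the naming minimum of 20 reads, voom and exact conditional 95% intervals, which cover counting error only.

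Named were EIF4E2, METTL16, 15 genes per direction, all kept eIF4E2 partners and up to 4 members per list with the largest change. The members and the gene lists were chosen with earlier results of these data known. Descriptions used Python 3.11.15, pandas 2.3.3 and scipy 1.17.1. Gene positions and sequences are from RefSeq on GRCh38.p14.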

Additional observations from a re-analysis of the deposited data

How the results depend on the processing

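No gene passed limma under any alternative run, with lowest Benjamini-Hochberg adjusted p-values from 0.167 (voom) to 0.696 (no filter). The size-rule counts moved by over 1.5 times, from 69 higher and 52 lower genes to 36 and 25 with a pseudocount of 5, 423 and 415 with a minimum of 1 TPM, 481 and 503 with no minimum, 23 and 18 with a minimum of 20 TPM, and 208 and 13 with no centring. Without sheIF4E2 replicate 1 or replicate 2, when only 1 sample had to pass, they were 174 and 185 higher and 177 and 177 lower. With the second scramble sample alone as the control, a choice made after seeing the data, they were 256 and 159. The cause of these shifts was not tested, except that fewer genes or samples entered some of them by construction. Median-of-ratios scaling, quantile normalization, no trend, voom and a pseudocount of 0.1 kept both counts within 1.5 times. None of the 30 named genes changed sign in the 12 settings refitted (17 genes at a minimum of 20 TPM). Large changes in these same reads chose the genes, so a kept sign is no independent support. Runs without the trend or with the sample as a block leave the TE changes themselves as they were. Against the second scramble sample alone, 3 higher and 3 lower genes turned in both samples.

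The block ties each footprint library to the input library with the same label. With the sample as a replicate block, 0 genes were higher and 0 lower (lowest adjusted p = 0.233; 116 and 104 unadjusted). Deviations of input and footprints of the same knockdown sample had a correlation of -0.03 over 2961 genes. Depth limits the footprint side: 348, 258 and 183 kept genes had fewer than 10 footprint reads in the control and the knockdown samples.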

Other observations

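Some groups lay near the centre against the table's control and away from it against the second scramble sample. Over all genes, 35.2% were above and 35.2% below in both knockdown samples against the control. Against the second scramble sample these shares were 39.7% and 40.6%. Extracellular matrix and secreted genes had medians of 0.14 and -0.13 against the table's control, with 12 of 33 above the centre and 8 below. Against the second scramble sample 3 were above and 23 below, with medians of -0.33 and -0.69. Cytoskeleton genes had 9 of 27 above and 13 below (-0.01 and -0.10) against the control, and 5 above and 21 below (-0.51 and -0.63) against the second. Glycolytic genes went from 3 of 12 above and 6 below (-0.04 and -0.07) to 3 above and 8 below (-0.51 and -0.38). Large-subunit ribosomal proteins had 25 of 46 above and 11 below against the second scramble sample, with medians of 0.26 and 0.34.

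Single members stood apart from lists that stayed near the centre. MRPL57, a mitochondrial ribosomal protein, had 26.9, 52.7 and 47.2 TPM of input and 33.9, 17.6 and 24.2 TPM of footprints (-2.26 and -1.59, SE 0.45, adjusted p = 0.505 by limma), but stood at -0.24 and 0.43 against the second scramble sample. NDUFB3, a complex I subunit, stood at 1.29 and 1.71 from 6, 14 and 20 footprint reads, and at 1.69 and 2.11 against the second. TUBA1A, an alpha-tubulin, stood at 1.11 and 1.09 from 4, 18 and 24 footprint reads, and at -0.74 and -0.76 against the second. MRPL39 (3.01 and -0.78) and ATP5ME (2.84 and -0.99) had opposite signs in the knockdown samples, with 8, 13 and 7 and with 2, 8 and 1 footprint reads. SPARC, a matrix glycoprotein, had 8.64, 49.1 and 55.0 TPM of input and 2.04, 46.9 and 27.6 TPM of footprints, so both assays were higher in both knockdown samples, and its TE changes were 1.19 and 0.36. In the control SPARC was under the minimum in both assays, and TUBA1A in footprints (3.3 TPM). These genes passed it only through the knockdown samples, and for footprints this favours a higher TE.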
